A study of Mus musculus with 6 samples.

Results

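Glucose metabolism genes and the oxygen-sensing HIF genes were followed as a set of 40 transcripts chosen by symbol. The choice was made with earlier results of these data known. The set holds glucose transporters, the enzymes of glycolysis, lactate and pyruvate handling, the pentose phosphate pathway, the HIF factors with their prolyl hydroxylases, and 6 HIF target genes. All 40 are among the 16000 genes of the count table, and 35 had enough counts to be tested. The libraries are of polyadenylated RNA of NIH3T3, an established mouse embryonic fibroblast line, kept without serum. They form 3 libraries labelled WT and 3 labelled Rai16 KO, all under serum starvation, which takes fibroblasts out of the cell cycle. The labels do not say how the knockout was made, whether it is 1 clone, or whether each library is a culture of its own. The p-values therefore rest on library-to-library spread that could be purely technical. Oxygen and glucose supply are not given in the labels.

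Glycolysis turns glucose into pyruvate in the cytosol, and in fibroblasts much of the pyruvate leaves the cell as lactate. The pentose phosphate pathway branches off at glucose 6-phosphate and supplies NADPH and ribose. The HIF factors are transcription factors whose alpha subunits are marked for destruction by prolyl hydroxylases when oxygen is present. Many genes of glucose uptake and glycolysis are known HIF targets, so both groups of genes are often read together.

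Libraries held between 16741607 and 18368760 counts. Levels are given as CPM, the count scaled to TMM-adjusted library size, for replicates 1, 2 and 3 in this order. The targeted gene, listed as Fam160b2, stood at 25.4, 22.5 and 23.6 CPM in wild-type replicates 1, 2 and 3 and at 22.3, 21.5 and 21.96 CPM in the knockout replicates (adjusted p = 0.184, edgeR), so its whole-gene count does not show the knockout, and a small lesion would not show in it. The word knockout below follows the label. All 10 fibroblast markers on the list were tested, and their summed level was 25120 to 25630 CPM in wild type and 20330 to 23690 CPM in knockout. They went both ways: Fn1, Col3a1 and Pdgfrb were called lower, and Col1a1, Col1a2, Vim and Thy1 higher. Low sums of other cell types moved with the groups. Epithelial markers summed to 2.04 to 2.53 CPM in wild type and 4.67 to 5.89 CPM in knockout, endothelial ones to 0.402 to 0.659 and 1.41 to 4.03 CPM, and leukocyte ones to 3.66 to 4.14 and 5.07 to 6.05 CPM, with Krt8, Cdh5 and Cd68 called higher. Muscle markers summed to 0.169 to 6.21 CPM over both groups, and those of neural cells summed to 12.1 to 14.8 CPM in wild type and 1.42 to 2.496 CPM in knockout, nearly all of it from Map2. Kdr, Adgre1, Myog and Actc1 were at 0 counts in every wild-type library. The part of any of these in the results was not tested. Knockout replicate 2 stood apart from replicates 1 and 3 (chi-square per degree of freedom 28.6 and 26.5, against 1.72 between replicates 1 and 3).

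Glucose metabolism genes moved in both directions in knockout, and the members at the entry, at the regulatory kinase and at the HIF factor were among those with the largest falls. Of the 35 members tested, 11 were higher, 13 were lower and 11 were not called. The share called, 68.6%, stands beside 59.6% of all 11972 genes tested, and the set was not tested against them. Its choice was not blind to these data. Among all genes 30.5% were higher and 29.2% lower. The members' median log2 fold change was −0.06, beside 0.0028 over all genes, and the median size was 0.27, beside 0.32 over all genes. A single member, Ankrd37, passed and differed by at least 2-fold, as 10.9% of all genes did. The libraries of the groups did not overlap for 24 of the 35 members, beside 67.6% of all genes. A gene counts as called at an adjusted p under 0.05 in edgeR's quasi-likelihood test over all genes tested. Each fold change is the log2 ratio of knockout to wild type, ± its standard error.

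**Figure D1:**
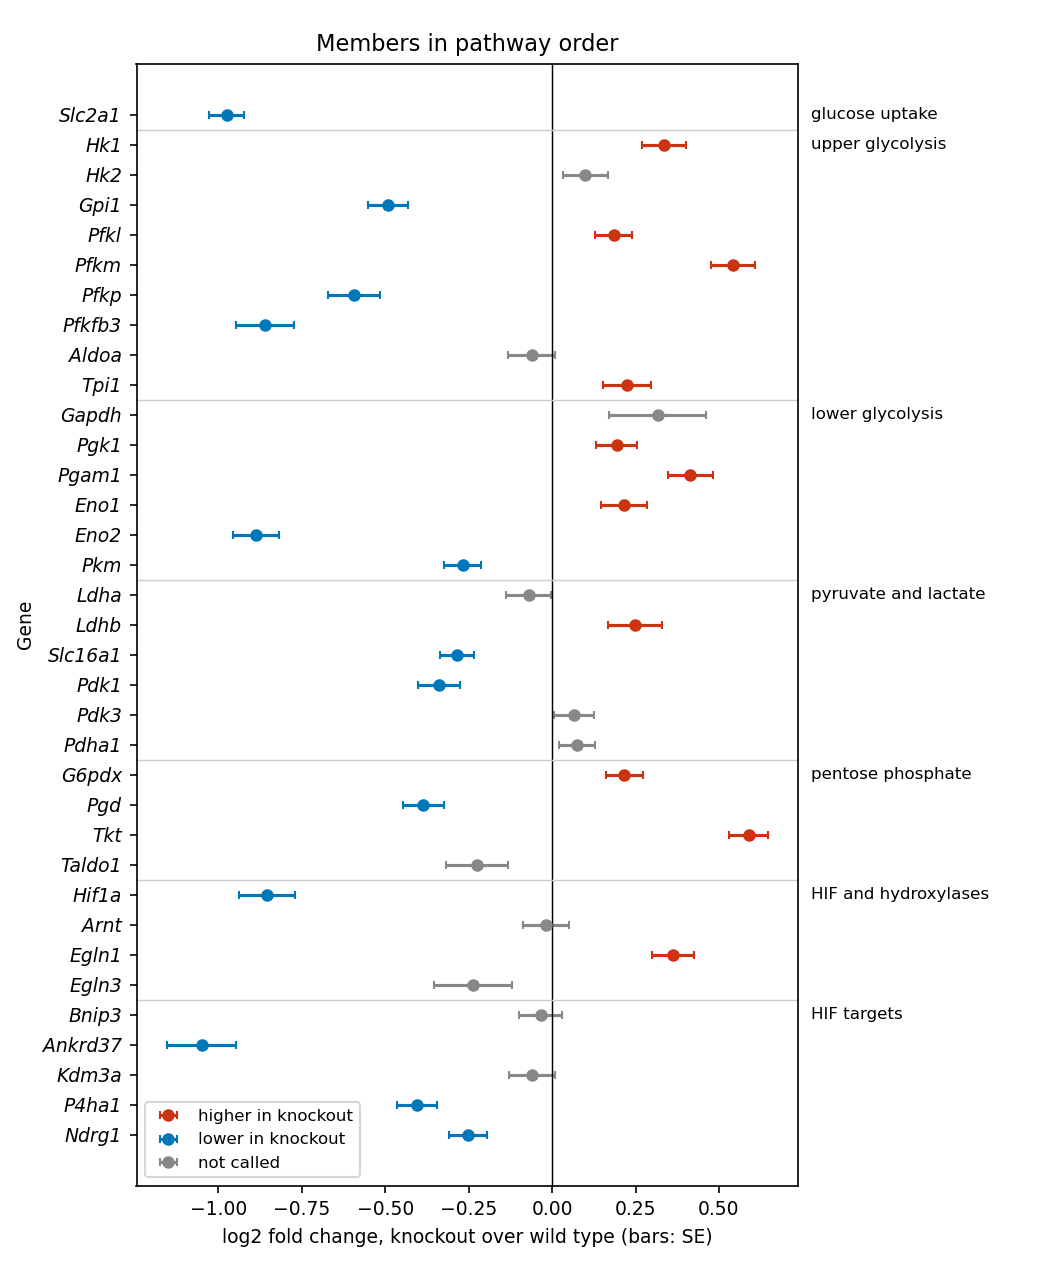
Log2 fold change of knockout over wild type (horizontal axis) for the 35 members tested, in pathway order from top to bottom, with bars for the standard error and colours for the edgeR call at an adjusted p under 0.05. The falls of Slc2a1, Pfkfb3, Eno2, Hif1a and Ankrd37 lie furthest left, between −0.86 and −1.05, and the largest rise is that of Tkt, at 0.59.

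Glucose enters fibroblasts mainly through GLUT1, the product of Slc2a1. Slc2a1 stood at 391, 385 and 372 CPM in wild type and at 196, 196 and 193 CPM in knockout. Every knockout library lay far below every wild-type library, and the libraries of each group were close together. The log2 fold change was −0.98 ± 0.053 (adjusted p = 1.02e-06, edgeR), or 1.97-fold lower. By FPKM, the count per transcript length and library size, it went from rank 331 to rank 802 of all genes. In bulk libraries, fewer cells that express a gene and less RNA per cell cannot be told apart. Its 20 nearest tested genes on the chromosome, 10 on either side, moved the other way on balance, with a median log2 fold change of 0.25, 10 of them higher and 3 lower. Slc2a3, the gene of the high-affinity transporter GLUT3, had 1, 1 and 0 counts in wild type and 0, 3 and 0 in knockout, so this level is close to the limit of detection in both groups.

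Hexokinases trap glucose as glucose 6-phosphate. Hk1, the form of most tissues, stood at 125, 135 and 126 CPM in wild type and at 162, 154 and 173 CPM in knockout, and was higher by 0.34 ± 0.065 (adjusted p = 0.00188, edgeR). Hk2, the inducible form and a known HIF target, stood at 98.5, 102 and 105 CPM in wild type and at 113, 100.5 and 114 CPM in knockout. Its groups overlapped, and the difference of 0.10 ± 0.067 was not called (adjusted p = 0.224, edgeR, 95% interval −0.05 to 0.25). Knockout replicate 2 was the lowest of its group for Hk2. Without it the difference was 0.16 and passed (adjusted p = 0.000586). The neighbours of Hk2 had a median of 0.55, with 16 of 20 higher and 2 lower. Gpi1, whose product converts glucose 6-phosphate to fructose 6-phosphate, stood at 763, 767 and 770.04 CPM in wild type and at 519, 581 and 536 CPM in knockout, a change of −0.49 ± 0.06 on the log2 scale (adjusted p = 0.000128, edgeR). Its neighbours had a median of −0.35, with 11 of 20 lower and 1 higher.

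Phosphofructokinase commits sugar to glycolysis, and its 3 genes moved apart. Pfkl, the liver-type subunit, stood at 152, 154 and 152 CPM in wild type and at 171, 181 and 169.6 CPM in knockout (0.18 ± 0.055, adjusted p = 0.0169, edgeR). This small rise lost its call when any single wild-type library was left out (adjusted p 0.0579 to 0.0672). Pfkm, the muscle-type subunit, stood at 60.3, 58.5 and 61.4 CPM in wild type and at 84.1, 94.3 and 84.01 CPM in knockout (0.54 ± 0.065, adjusted p = 0.000117, edgeR). Pfkp, the platelet-type subunit, was the least abundant and went the other way, from 19.2, 20.8 and 20.7 CPM to 13.5, 13.6 and 13.1 CPM (−0.59 ± 0.078, adjusted p = 0.000203, edgeR). The 3 genes lie on different chromosomes, and the neighbours of Pfkp had a median of −0.48 with 12 of 20 lower. With 5 genes on either side in place of 10 that median was −0.13. Pfkfb3 makes fructose 2,6-bisphosphate, the strongest activator of phosphofructokinase. It stood at 18.3, 20.9 and 19.99 CPM in wild type and at 11.02, 10.7 and 10.9 CPM in knockout. The knockout libraries differed by less than 1 CPM and all lay below wild type (−0.86 ± 0.086, adjusted p = 3.83e-05, edgeR), while its neighbours had a median of 0.07 (0.18 with 5 on either side).

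**Figure D2:**
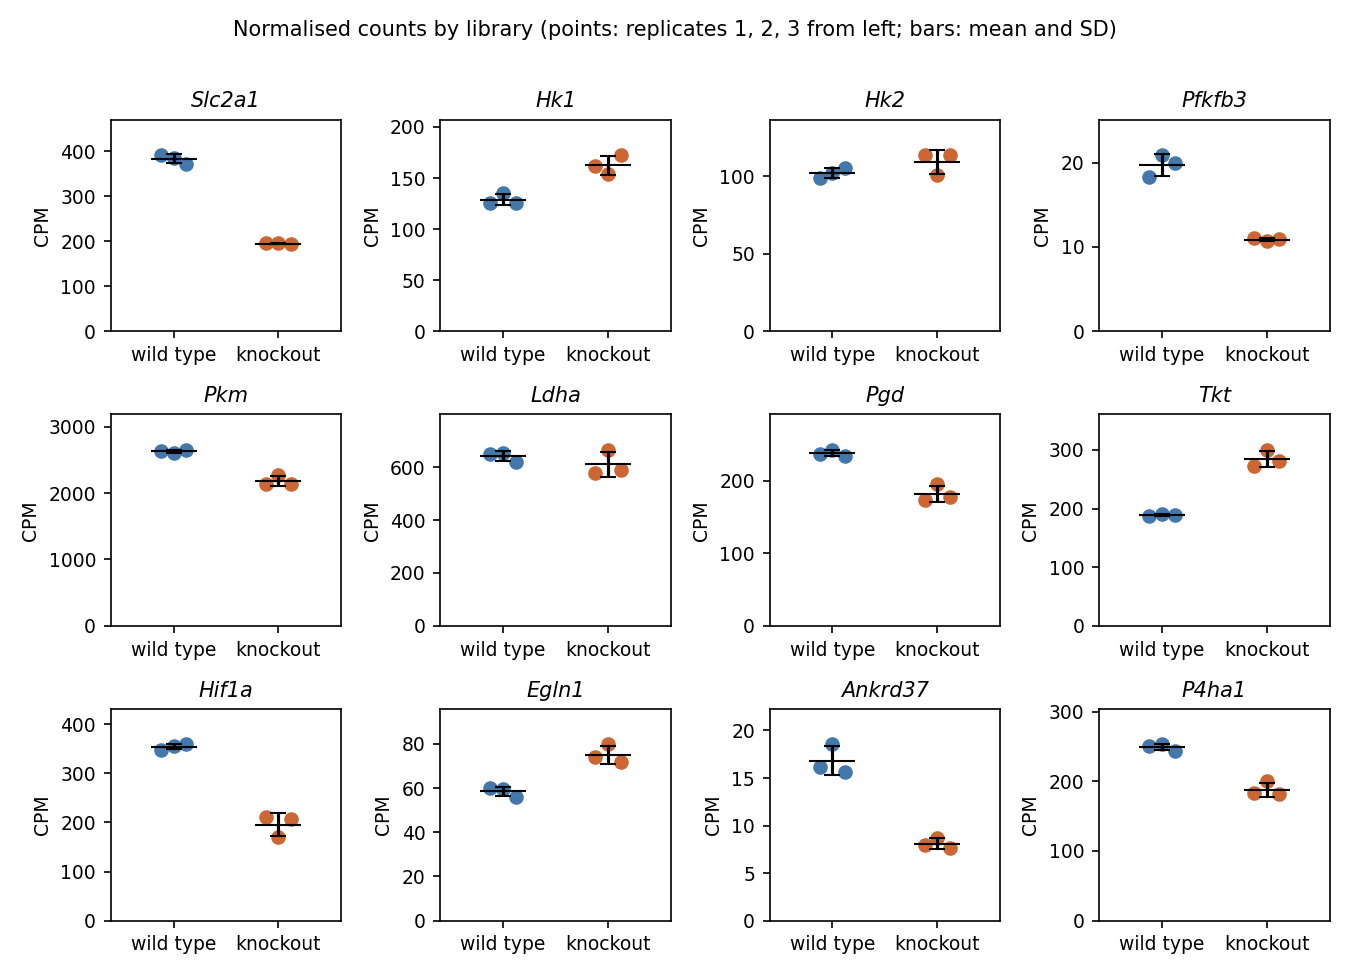
Normalised count (CPM, vertical axes from 0) of 12 members in each library, with replicates 1, 2 and 3 from left to right and bars for the mean and SD of each group. Slc2a1, Pfkfb3, Hif1a and Ankrd37 have knockout libraries far below wild type, Tkt has them above, and Hk2 and Ldha overlap between groups.

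Of the enzymes that split the sugar and handle the trioses, Tpi1 rose slightly and Aldoa was not called. Aldoa, the aldolase of most cells, stood at 871, 849 and 839 CPM in wild type and at 770.3, 902 and 782 CPM in knockout. Knockout replicate 2 lay above all wild-type libraries and replicates 1 and 3 below all of them, and the difference of −0.06 ± 0.071 was not called (adjusted p = 0.482, edgeR, 95% interval −0.22 to 0.10). Without replicate 2 it was −0.14 and passed (adjusted p = 1.04e-05). Aldoc, the brain-type aldolase, had 8, 3 and 8 counts in wild type and 5, 4 and 4 in knockout and was not tested. Tpi1, which interconverts the trioses, stood at 436, 443 and 436 CPM in wild type and at 479, 567 and 490.4 CPM in knockout (0.22 ± 0.072, adjusted p = 0.0234, edgeR, and 0.0677 to 0.0836 without any single wild-type library).

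Gapdh, often used as a reference gene, cannot be read at face value in this table. It stood at 27.8, 36.1 and 24.5 CPM in wild type and at 32.1, 41.96 and 35.9 CPM in knockout, with overlapping groups. In FPKM it was at 16.9 ± 3.46 FPKM in wild type, where the next enzyme of the pathway, Pgk1, was at 271 ± 3.898 FPKM (SD, n = 3 each). Of all windows of 100 bases in the longest coding transcript of Gapdh, 78% occur letter for letter in transcripts of 86 other annotated genes, 82 of them pseudogenes. How the authors' counting treated reads that fit several places is not given, so the level and the change of Gapdh are uncertain. The difference of 0.32 ± 0.15 was not called (adjusted p = 0.0904, edgeR), and it passed without wild-type replicate 2 (0.49, adjusted p = 0.015), without knockout replicate 1 (0.40, 0.0495) and without knockout replicate 2 (0.21, 0.0219). In all, 7 of the 40 members share at least 10% of such windows: beside Gapdh these are Pgk1 (67%), Eno1 (59%), Pgam1 (39.7%), Bnip3 (33.5%), Pfkp (16%) and Pdha1 (12%). Their values carry the same doubt, and the part of shared reads in any change was not tested.

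Below GAPDH, Pgk1, Pgam1 and Eno1 rose, while Eno2 and the gene of the last enzyme, Pkm, fell. Pgk1, the first ATP-making kinase, stood at 494, 505 and 493 CPM in wild type and at 533, 607 and 566 CPM in knockout (0.19 ± 0.062, adjusted p = 0.0242, edgeR). Its call was lost without any single wild-type library (adjusted p 0.0672 to 0.0916) and without knockout replicate 3 (0.0558). Pgam1, phosphoglycerate mutase, stood at 263, 296 and 261 CPM in wild type and at 351, 379.6 and 362 CPM in knockout (0.41 ± 0.067, adjusted p = 0.000702, edgeR). Eno1, the common enolase, stood at 440.03, 452 and 441 CPM in wild type and at 482, 564 and 502 CPM in knockout (0.21 ± 0.068, adjusted p = 0.0228, edgeR, and 0.0626 to 0.0843 without any single wild-type library). Eno2, the neuron-type enolase, was clearly lower, from 128, 123 and 114 CPM in wild type to 68.3, 67.3 and 61.5 CPM in knockout (−0.89 ± 0.068, adjusted p = 8.14e-06, edgeR). Eno2 and Tpi1 are close neighbours on chromosome 6 and changed in opposite directions, and 11 of the 20 neighbours of Eno2 were higher and 0 lower. Pkm, pyruvate kinase, was the most abundant member by FPKM, at rank 108 of all genes in wild type. It stood at 2633, 2600 and 2652 CPM in wild type and at 2144, 2270 and 2136 CPM in knockout (−0.27 ± 0.055, adjusted p = 0.00273, edgeR). The table counts Pkm as a whole and does not separate its M1 and M2 splice forms. Its neighbours had a median of −0.31, close to its own change, with 14 of 20 lower.

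Of the 6 pyruvate and lactate members tested, 1 rose, 2 fell and 3 were not called. The share called was 50%, beside 59.6% of all genes (30.5% higher and 29.2% lower). Ldha, which makes lactate and is a known HIF target, stood at 650.4, 653 and 621 CPM in wild type and at 579, 665 and 588 CPM in knockout. Its groups overlapped through knockout replicate 2, and the difference of −0.07 ± 0.068 was not called (adjusted p = 0.395, edgeR, 95% interval −0.22 to 0.08). Without that library it was −0.13 and passed (adjusted p = 2.8e-05). Ldhb, the form that favours the reverse reaction, stood at 52.3, 57.7 and 56.1 CPM in wild type and at 60.5, 73.1 and 63.6 CPM in knockout (0.25 ± 0.081, adjusted p = 0.0253, edgeR), a call lost without wild-type replicate 1 (0.106) or 3 (0.0695). Its neighbours went the other way, with a median of −0.39 and 13 of 20 lower (a median of −0.19 with 5 on either side). Slc16a1, the lactate carrier MCT1, fell from 129.9, 128 and 129 CPM to 104, 107 and 107 CPM (−0.29 ± 0.052, adjusted p = 0.00132, edgeR). Slc16a3, the carrier MCT4 of strongly glycolytic cells and a known HIF target, had 0, 0 and 0 counts in wild type and 2, 19 and 0 in knockout. A count of 0 allows up to 3 counts, or 0.172 to 0.18 CPM in the wild-type libraries, and 19 of the 21 knockout counts came from replicate 2. Pdk1, a kinase that shuts pyruvate dehydrogenase and a known HIF target, stood at 83.3, 91.5 and 84.4 CPM in wild type and at 69.9, 65.1 and 70.1 CPM in knockout (−0.34 ± 0.063, adjusted p = 0.0015, edgeR). Its relative Pdk3 stood at 53.5, 54.01 and 58.4 CPM in wild type and at 57.4, 59.01 and 57.3 CPM in knockout and was not called (0.07 ± 0.059, adjusted p = 0.36, edgeR, 95% interval −0.07 to 0.20). Pdha1, a subunit of the dehydrogenase itself, was not called either (0.07 ± 0.055, 95% interval −0.05 to 0.20).

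The 4 pentose phosphate members did not move as a block. G6pdx, the entry enzyme that yields NADPH, stood at 112, 120.5 and 117 CPM in wild type and at 135, 138 and 133 CPM in knockout (0.22 ± 0.056, adjusted p = 0.00845, edgeR, and 0.0515 without wild-type replicate 1). Pgd, which makes the other NADPH of this branch, went the other way, from 237, 243 and 234 CPM to 173, 195 and 178 CPM (−0.39 ± 0.062, adjusted p = 0.000636, edgeR). The transcripts of the NADPH-making enzymes of the branch thus changed in opposite directions. The neighbours of Pgd had a median of −0.24, with 10 of 20 lower and 1 higher. With 5 genes on either side that median was −0.40, close to the change of Pgd itself, and the part of the neighbourhood was not tested. Tkt, transketolase, links the pathway back to glycolysis and showed the largest rise among the members, from 187, 191 and 189.5 CPM in wild type to 272, 300.3 and 281 CPM in knockout (0.59 ± 0.058, adjusted p = 3.6e-05, edgeR). Its neighbours on chromosome 14 had a median of 0.64, above the change of Tkt itself, and 16 of 20 were higher. The part of the neighbourhood in the rise of Tkt was not tested. Among all genes placed, 6.11% had neighbours with a median of at least 0.5 in size, as had 2 members, Tkt and Hk2. Taldo1, transaldolase, stood at 158, 155 and 162 CPM in wild type and at 122, 157 and 126 CPM in knockout. The neighbours of Taldo1 had a median of 0.49, opposite in sign. Knockout replicate 2 lay within the wild-type range and the other knockout libraries below it. The difference of −0.23 ± 0.093 was not called (adjusted p = 0.0622, edgeR), and without replicate 2 it was −0.34 and passed (adjusted p = 2.67e-12). That fit has 3 residual degrees of freedom and rests on 2 knockout libraries with little spread (chi-square per degree of freedom 1.72).

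Among the oxygen-sensing genes, the HIF-1 alpha transcript was lower in knockout and its main partner gene Arnt was not called. Hif1a stood at 348, 355 and 358 CPM in wild type and at 210.5, 169 and 207 CPM in knockout (−0.86 ± 0.084, adjusted p = 3.49e-05, edgeR). All knockout libraries lay below wild type, and replicate 2 was the lowest. HIF-1 alpha is controlled mainly at the protein, which these libraries do not measure. Epas1, which encodes HIF-2 alpha, had 0, 1 and 0 counts in wild type and 0, 7 and 0 in knockout, so Hif1a was the only alpha subunit of the set with counts beyond a few. Arnt, the beta subunit that pairs with it, stood at 129, 123 and 123 CPM in wild type and at 127, 113 and 130.5 CPM in knockout (−0.02 ± 0.068, adjusted p = 0.83, edgeR, 95% interval −0.17 to 0.14). Arnt2, a second beta subunit gene outside the set that was chosen after its values were seen, fell from 117, 116 and 123 CPM to 80.3, 66.4 and 90.4 CPM (−0.59 ± 0.1, adjusted p = 0.00099, edgeR). Egln1, the main prolyl hydroxylase PHD2, rose from 59.9, 59.5 and 56.1 CPM to 73.97, 79.7 and 71.7 CPM (0.36 ± 0.063, adjusted p = 0.00104, edgeR). Its neighbours had a median of 0.22, with 10 of 20 higher. Egln3, the hydroxylase PHD3, stood at 12.1, 12.3 and 9.94 CPM in wild type and at 10.6, 9.59 and 9.01 CPM in knockout. Its groups overlapped and it was not called (−0.24 ± 0.12, adjusted p = 0.112, edgeR), but it passed without wild-type replicate 3 (−0.33, 0.0453).

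Of the 5 HIF target members tested, 3 were lower and 2 were not called, a share called of 60% beside 59.6% of all genes, of which 29.2% were lower. These 5 are only the targets listed apart from the metabolic steps. Glycolysis genes, many of them known HIF targets too, went both ways. From hexokinase to Tpi1, 4 of 9 members tested rose and 3 fell (77.8% called). From Gapdh to Pkm, 3 of 6 rose and 2 fell (83.3% called). Ankrd37, an ankyrin repeat gene that responds strongly to low oxygen, stood at 16.2, 18.5 and 15.7 CPM in wild type and at 7.98, 8.72 and 7.601 CPM in knockout (−1.05 ± 0.1, adjusted p = 3.79e-05, edgeR). Every knockout library was below every wild-type library, and its neighbours had a median of 0.13. P4ha1, a collagen prolyl hydroxylase subunit, fell from 249.98, 253 and 244 CPM to 183, 199.8 and 181 CPM (−0.41 ± 0.06, adjusted p = 0.000389, edgeR). Ndrg1, a stress-responsive gene, was lower by a smaller step, from 200.4, 191 and 188 CPM to 158, 167 and 161 CPM (−0.25 ± 0.056, adjusted p = 0.00409, edgeR). Its neighbours had a median of −0.32 (−0.52 with 5 on either side). Bnip3, a mitochondrial autophagy receptor, stood at 82.4, 86.1 and 82.3 CPM in wild type and at 78.1, 88.1 and 78.7 CPM in knockout, with overlapping groups (−0.03 ± 0.065, adjusted p = 0.669, edgeR, 95% interval −0.18 to 0.11). Kdm3a, a histone demethylase, stood at 185, 188 and 173 CPM in wild type and at 179.8, 161 and 183 CPM in knockout and was not called (−0.06 ± 0.068, 95% interval −0.22 to 0.09). Car9, a surface carbonic anhydrase that is nearly silent without HIF, had 1, 0 and 0 counts in wild type and 0, 1 and 0 in knockout.

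HIF binds DNA at a short core, ACGTG or GCGTG, and promoters of members with the core ACGTG are shown because they belong to genes that fell, rose and were not called. The stretches of 30 bases are from RefSeq's promoter table for GRCm38.p6, a build other than the GRCm39 of the count table, and lie before the annotated start, written 5′ to 3′ on the strand of the gene. Capitals mark ACGTG or its reverse complement CACGT, and CACGTG holds both.
Slc2a1, lower, chr4:119108697-119108726, plus strand: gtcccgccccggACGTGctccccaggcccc
Pfkfb3, lower, chr2:11553972-11554001, minus strand: ctccgcgccgtgACGTGccaagctgtgacc
Ankrd37, lower, chr8:46000071-46000100, minus strand: cccagcagtACGTGcctagctcggctcgca
P4ha1, lower, chr10:59323266-59323295, plus strand: ggtgtgacagagcgCACGTagcgagggctg
Pgk1, higher, chrX:106186947-106186976, plus strand: aggACGTGacaaatggaagtagCACGTctc
Pgam1, higher, chr19:41911745-41911774, plus strand: cgctccttgcttACGTGcgctccgtgactg
Egln1, higher, chr8:124949305-124949334, minus strand: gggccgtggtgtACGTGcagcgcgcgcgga
Ldha, not called, chr7:46845749-46845778, plus strand: cagcctaCACGTGggttcccgCACGTccgc
Bnip3, not called, chr7:138909597-138909626, minus strand: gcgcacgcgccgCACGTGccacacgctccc
The stretches of Slc2a1, Pfkfb3 and Egln1 overlap an exon of another transcript of the same gene in GENCODE's annotation of that build, and the other 6 overlap no exon. The table held 53 windows for 37 members (all but Slc2a3, Epas1 and Ndrg1), each from 250 bases before to 50 bases after a start. On either strand, ACGTG was found in 26 of the 53 windows (49.1%), beside 19.6% of all 32851 windows and 25.4% of the 12199 windows of genes tested. GCGTG was found in 31 (58.5%), beside 32.4% and 50.6%. By gene, ACGTG was present in 7 of 12 members that were lower, 6 of 11 that were higher and 7 of 11 that were not called. A match is a run of letters, not a measured binding site.

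Levels per length can be compared between paralogues. The ratio differed without overlap between the groups in every pair that could be compared. Of single genes 67.6% did not overlap in CPM, which is no measure of how often ratios do so. Of 11 pairs listed, 7 had both genes tested, and a ratio within a library does not depend on how libraries are scaled. In FPKM, Pfkp was the minor phosphofructokinase in both groups, at 7.52 ± 0.312% of the summed FPKM of the 3 genes in wild type and 4.16 ± 0.142% in knockout (SD, n = 3 each). Pfkm went from 30.1 ± 0.663% to 36.6 ± 0.714% of it, and Pfkl went from 62.3 ± 0.585% to 59.2 ± 0.577%. The ratio of Pfkm to Pfkp was 4.25, 3.801 and 3.999 in wild type and 8.44, 9.35 and 8.65 in knockout, a log2 difference of 1.13 ± 0.064 (SE), and that of Pfkl to Pfkp differed by 0.78 ± 0.042. Eno2 relative to Eno1 was 0.178, 0.167 and 0.158 in wild type and 0.0869, 0.0731 and 0.0751 in knockout (−1.10 ± 0.091). Eno1 was thus above Eno2 in every library as counted. Eno1 and Pfkp share 59% and 16% of their windows of 100 bases with other genes, so ratios with either carry that doubt.

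Ldhb relative to Ldha was 0.3295, 0.362 and 0.3701 in wild type and 0.428, 0.4499 and 0.443 in knockout, a log2 difference of 0.32 ± 0.056. The ratio of Hk2 to Hk1 was 0.707, 0.677 and 0.749 in wild type and 0.631, 0.587 and 0.592 in knockout (−0.24 ± 0.053). Pdk3 relative to Pdk1 was 0.349, 0.3204 and 0.376 and 0.446, 0.492 and 0.444 in the same order (0.40 ± 0.082), and Egln3 relative to Egln1 was 0.232, 0.238 and 0.203 and 0.164, 0.138 and 0.144 (−0.59 ± 0.1). In all 7 pairs the groups did not overlap, beside 67.6% of single genes, a share that was not computed for ratios. Each two-sided exact permutation test over the libraries therefore gave p = 0.1, also after adjustment over the 7 pairs. That is the smallest value 3 against 3 libraries allow, and none can pass 0.05. The pairs of phosphofructokinases share Pfkp.

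**Figure D3:**
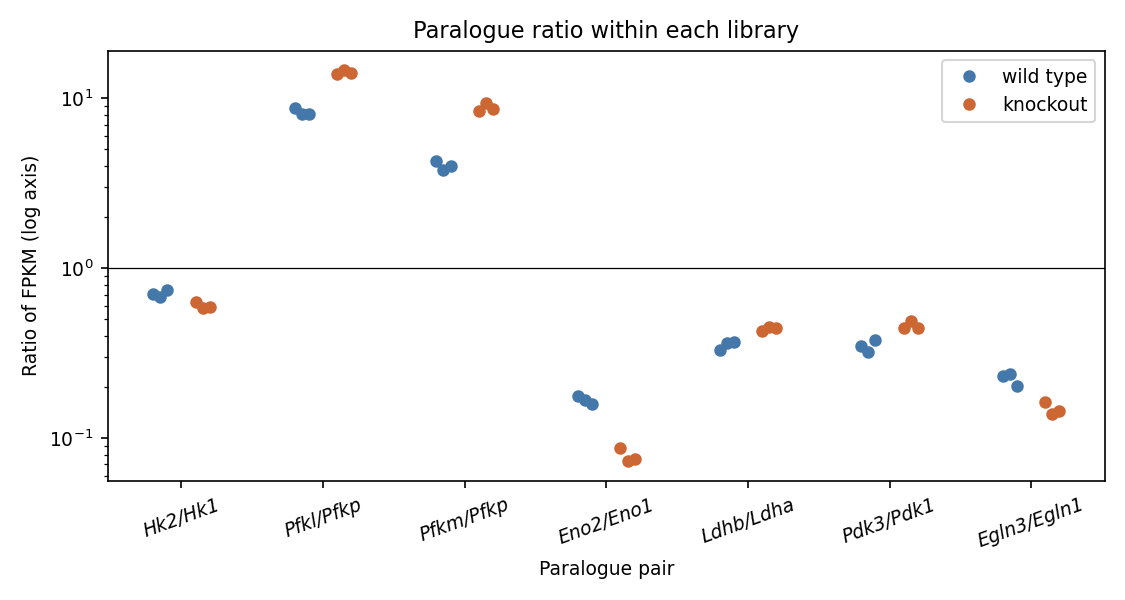
Ratio of FPKM of the named paralogues within each library (log axis), with wild-type libraries in blue and knockout libraries in orange for 7 pairs. Pfkm over Pfkp goes from about 4 in wild type (3.8 to 4.25) to between 8.44 and 9.35 in knockout, and Eno2 over Eno1 lies at or below 0.0869 in every knockout library.

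Summed over the members of each step, the per-length level changed unevenly along the pathway. Many steps hold a single gene, or a single gene beside one close to the limit of detection, so their sums restate single-gene results. The sum of the glucose transporters is nearly all Slc2a1. The glucose transporters summed to 144 ± 3.78 FPKM in wild type and 73.8 ± 1.15 FPKM in knockout (SD, n = 3 each), a change of −48.7%. The next largest fall was at phosphoglucose isomerase, at −28.3%, followed by the lactate transporters (−16.9%), pyruvate kinase (−16.3%) and the pyruvate dehydrogenase kinases Pdk1 and Pdk3 (−13.6%). Phosphoglycerate mutase was 34.2% higher, phosphofructokinase 20.7%, hexokinase 19.2%, triose phosphate isomerase 17.8% and phosphoglycerate kinase 15.2% higher. The groups did not overlap for these 10 of 14 steps, where 67.6% of single genes did not overlap, and they overlapped for aldolase (−3.35%), GAPDH, enolase (8.01%) and lactate dehydrogenase (2.203%). Adding the listed paralogues that are not members, a choice made after seeing the data, turned the direction of the kinase step. With Pdk2 and Pdk4 it summed to 37.6 ± 1.002 FPKM in wild type and 62.7 ± 3.8 FPKM in knockout, a change of 66.5%. With Eno1b and Eno3 enolase was 13.4% higher and the groups no longer overlapped, and with 4 more transporter genes glucose transport changed by −43.7%. In that form 7 steps were higher, 4 lower and 3 overlapping. Eno1 shares 59% of its windows of 100 bases with other genes, and those of Eno1b were not examined, so both enolase sums carry that doubt. These sums are descriptions with no test, and they are of transcripts, not of enzyme activity or of flux.

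**Figure D4:**
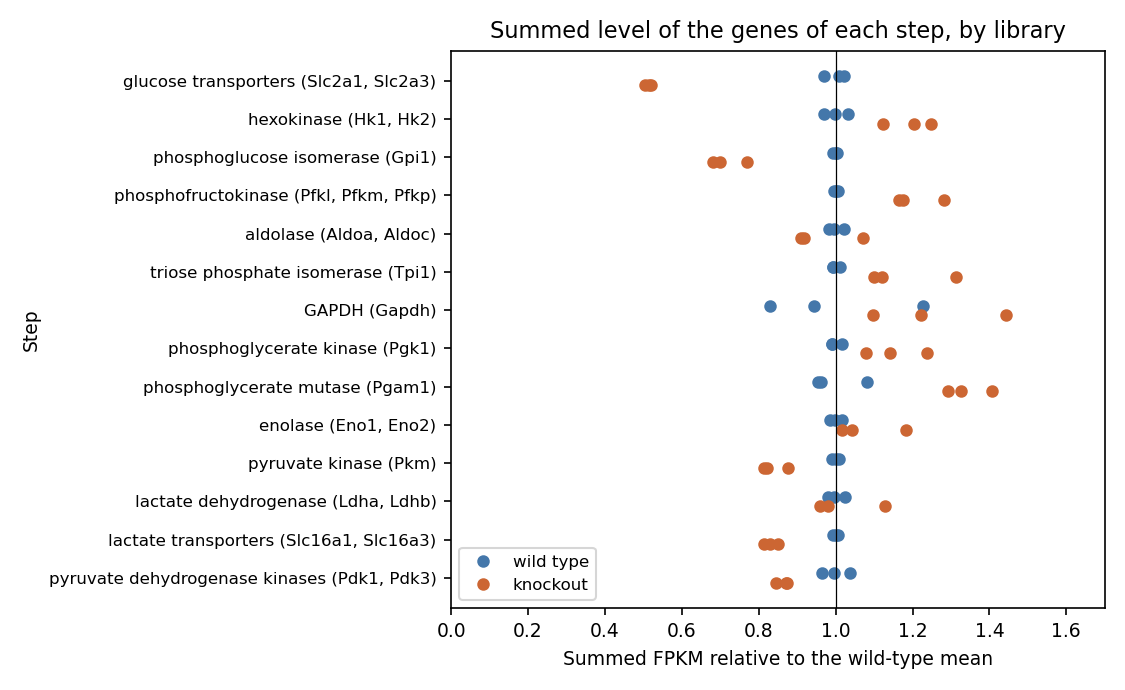
Summed FPKM of the members named at each step in each library, divided by the wild-type mean of that step (horizontal axis from 0), from glucose entry at the top to the use of pyruvate at the bottom. Glucose transporters lie near 0.51 in all knockout libraries, while aldolase and lactate dehydrogenase have knockout points on both sides of the wild-type points, replicate 2 being the highest.

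Knockout replicate 2 differed from its group across these genes. Of the 35 members, it was above both other knockout libraries for 26, below both for 7 and between them for 2. Its CPM exceeded the mean of replicates 1 and 3 by 0.34 on the log2 scale for Taldo1, 0.30 for Gapdh, 0.24 for Ldhb, 0.23 for Tpi1, 0.22 for Aldoa, 0.20 for Eno1 and 0.19 for Ldha, and it was lower for Hif1a (−0.30) and Arnt (−0.19). It also held 3 of 3 knockout counts of Slc2a3, 7 of 7 of Epas1 and 19 of 21 of Slc16a3. Without this library, 13 members were higher and 16 lower. Each fit without 1 library has 3 residual degrees of freedom. With replicate 2 left out, the knockout libraries kept differ little (chi-square per degree of freedom 1.72), so small changes can pass with a very small p. Over all genes, leaving out 1 library gave 3024 to 4350 rises and 3023 to 4236 falls, against 3646 and 3490 with every library kept. Leaving out a wild-type library moved the count of rises most, from 11 to 5 without replicate 1, to 8 without replicate 2 and to 6 without replicate 3, while 13 or 14 members were called lower. The muscle markers Des and Actc1 had 82 and 31 counts in this library, against at most 12 and 0 in any other, and Pgam2, the muscle-type mutase gene, had 66 against at most 3. Whether its RNA quality or culture differed is not given in the labels, and the part of either in these values was not tested.

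Other genes of the same pathways, 94 symbols that are not members, were read in the same way. Ero1l and Ero1a are symbols of the same gene. Of the 84 that the count table lists, 74 were tested: 24 were higher, 20 lower and 30 not called, a share called of 59.5% beside 59.6% of all genes, with a median of 0.05. Among 16 genes of glucose entry and glycolysis, 7 were higher and 2 lower (56.2% called). Eno3, the muscle-type enolase, rose by 0.99 ± 0.17 on the log2 scale, Bpgm, which makes 2,3-bisphosphoglycerate, by 0.96 ± 0.1, and the intracellular transporter gene Slc2a8 by 0.57 ± 0.13. Pfkfb2, a relative of Pfkfb3, was lower (−0.53 ± 0.15), as was the ADP-dependent glucokinase gene Adpgk (−0.18 ± 0.063). The relatives did not move together. Pfkfb4 and Pfkfb1 are named after their values were seen. Pfkfb4 was higher (0.56 ± 0.14, adjusted p = 0.006, edgeR), and Pfkfb1 was not called (−0.04 ± 0.25). The call of Adpgk was lost in 7 of 12 alternatives, 4 of them without a single library (wild-type 1 or 2, knockout 1 or 3), with adjusted p up to 0.144. Pfkfb2 lost it without wild-type replicate 1 (0.0557) or 3 (0.0517).

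Among 15 other genes of pyruvate and lactate, 8 were higher and 3 lower, or 73.3% called beside 59.6% of all genes (30.5% higher and 29.2% lower). Pdk4, a starvation-induced kinase of pyruvate dehydrogenase, rose from 47.1 ± 1.702 CPM to 138 ± 13.1 CPM (mean ± SD of 3 libraries), by 1.55 ± 0.08 on the log2 scale (adjusted p = 7.68e-07, edgeR), opposite to the fall of Pdk1. Bsg and Emb, which encode the partner proteins that carry lactate transporters to the surface, rose by 0.62 ± 0.069 and 0.63 ± 0.066, opposite to the fall of Slc16a1. Pck2, the mitochondrial PEP carboxykinase, fell from 167 ± 4.87 to 48.9 ± 3.31 CPM (−1.77 ± 0.067, adjusted p = 1.41e-07, edgeR), and the dehydrogenase subunit gene Dlat and the phosphatase gene Pdp1 by less (−0.32 ± 0.054 and −0.21 ± 0.067). Pdp1 lost its call without wild-type replicate 3 (adjusted p = 0.092) or knockout replicate 1 (0.0789). Of 8 other pentose phosphate genes, 3 were higher and 1 lower (50% called). Pgls, the lactonase between G6pdx and Pgd, rose by 0.81 ± 0.099, and the ribose phosphate kinase genes Prps2 and Prps1 by 0.88 ± 0.059 and 0.25 ± 0.085, while the epimerase gene Rpe fell (−0.53 ± 0.073). Prps1 lost its call without wild-type replicate 2 or 3 (adjusted p = 0.111 and 0.115). The entry of the branch therefore held 2 rises, G6pdx and Pgls, followed by the fall of Pgd.

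The 35 other genes of the HIF pathway tested counted 6 rises, 14 falls and 15 not called, with a median of −0.13. The share called was 57.1%, beside 59.6% of all genes (30.5% higher and 29.2% lower). Vldlr, a lipoprotein receptor gene named after its values were seen, had 89, 113 and 109 counts in wild type and 1, 2 and 0 in knockout and was called lower (adjusted p = 1.81e-06, edgeR). Among genes that averaged 5 CPM or more across both groups, which leaves Vldlr out, the largest falls were in Stc2, a secreted glycoprotein (−1.36 ± 0.09), the angiogenic factor gene Vegfa (−0.95 ± 0.056) and Plod2, a collagen lysyl hydroxylase (−0.93 ± 0.067). The largest rises were in Adm, encoding adrenomedullin (2.40 ± 0.062), the collagen cross-linking oxidase gene Lox (1.26 ± 0.074) and Cited2, whose product competes with HIF for its coactivator (1.00 ± 0.06). Adjusted p over these 6 ran from 1.72e-08 to 5.68e-06 (edgeR). This list thus held calls in both directions, with more falls than rises.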

How the data were processed

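The authors deposited raw read counts per gene and FPKM values for 3 WT and 3 Rai16 KO libraries. The submitters' processing notes name GRCm39 and the tools HTSeq, DESeq, HISAT2, Trimmomatic and Cufflinks, with versions, settings, annotation and strand rule not given in the sources used here. Over 84086 values above 0, deposited FPKM differed by at most 8.04e-05% from count over library total and a single length per gene. Other samples' columns numbered 0. Genes passing filterByExpr (11972) were TMM-scaled and tested with edgeR 4.0.16 (R 4.3.3, adjusted p under 0.05, no covariate). The procedure was also run on simulated counts with the same spread for all genes and no library apart from its group, unlike these data. The standard error is the log2 fold change over the square root of the F statistic. Members and lists were chosen with earlier results of these data known. Every member is named, with values by library for those called at 0.5 or more in size, paralogue pairs, HIF factors and hydroxylases, Gapdh, Pgk1, Pkm and pentose phosphate genes; of other genes, the 3 largest rises and falls per list with a mean of at least 5 CPM. Neighbours were ordered by RefSeq's GRCm38.p6 table (99.7% of tested genes placed). Shared windows were found in GENCODE transcripts. Alternatives were DESeq2 1.42.0, its size factors, no filter, limma 3.58.1 on log2(FPKM + 1) and log2(FPKM + 0.1), a replicate block and leaving out each library.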

Additional observations from a re-analysis of the deposited data

How the results depend on the processing

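Of 35 members tested, 18 called members kept their call and direction in all 12 alternatives, 6 lost it in some, and 6 not called passed in some; 0 reversed past the threshold. Counts of members called without 1 library ran from 5 to 13 for rises and from 13 to 16 for falls. Without 1 library, all genes gave 3024 to 4350 rises and 3023 to 4236 falls, and other pathway genes 19 to 30 and 16 to 26. With the replicate block, 11 members were higher and 13 lower, and Pgk1 lost its call (adjusted p = 0.054) while Gapdh passed (0.0201). Adpgk (0.0642) and Prps1 (0.0552) also lost theirs, and over all genes it gave 3371 rises and 3321 falls. The labels do not say whether equal numbers pair the libraries. Same-numbered ones had deviations correlated by −0.07, −0.09 and 0.02. With 3 libraries per group and knockout replicate 2 apart from the others, these values cannot decide it. Treated as pairs, all 7 paralogue ratios had an exact sign-flip permutation p of 0.25, the smallest 3 pairs allow. With DESeq2, or its size factors in edgeR, Taldo1 passed (adjusted p = 0.0385 and 0.0474). At windows of 50 bases, a length chosen after seeing the data, 16 members shared at least 10% with other genes in place of 7. Depth limits Slc2a3, Aldoc, Slc16a3, Epas1 and Car9, which were too low to test; intervals cover counting error and the spread of 3 libraries only.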
